A study of Zea mays with 48 samples.

Results

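The genes described here are 6 protein-coding genes of the maize mitochondrial genome: cox1 (ZeamMp136), cox3 (ZeamMp161), nad4 (ZeamMp032), atp4 (ZeamMp051), ccmFC (ZeamMp033) and ccmFN (ZeamMp098). They were taken by name from the raw count files, in which they are 6 of 46430 identifiers and 6 of 208 mitochondrial ones, and they were chosen by name with their measured fold changes under chilling, from these same libraries, already known. Those changes are therefore given as a description, with no p-value of their own. The 48 RNA libraries come from B73, an inbred maize line, grown to 3 leaves, with 3 biological repeats for each of 4 tissues (root, leaf and the top and bottom crown) under 4 conditions. Control plants had shoot and root at 26 °C. Chilling lasted 24 h and cooled both to 4 °C (whole-plant), the shoot to 4 °C with the root kept at 26 °C (shoot-only), or the root to 0 °C with the shoot kept at 26 °C (root-only). The root was thus colder under root-only than under whole-plant chilling. The crown lies where shoot meets root. Its temperature under local chilling is not labelled, nor is whether a repeat was 1 plant or a pool.

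The mitochondrial respiratory chain passes electrons from NADH and succinate to oxygen and pumps protons, and ATP synthase uses the proton gradient to make ATP. Plant mitochondrial genomes keep genes for a few subunits of these complexes and, unlike animal ones, genes for the assembly of c-type cytochromes, while most subunits are encoded in the nucleus. nad4 encodes a membrane subunit of complex I (NADH dehydrogenase), cox1 the catalytic core subunit of complex IV (cytochrome c oxidase), cox3 another core subunit of complex IV, and atp4 subunit b of the stalk of ATP synthase. ccmFC and ccmFN encode the 2 parts of a protein that acts in attaching haem to cytochrome c. In plant mitochondria poly(A) tails are known mainly as marks for RNA decay. The libraries were primed on poly(A), so each value describes the captured part of a transcript pool and not the whole of it.

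Total counts per library ran from 3449880 to 8633854 (median 5442220.5). Mitochondrial identifiers held 565500 counts in all, of which the 6 genes held 53261 (9.42%) and the open reading frame orf99-d 48.3%. Over the 48 libraries there were 18438 counts for cox3, 17804 for nad4, 12908 for ccmFN, 2641 for cox1, 799 for ccmFC and 671 for atp4. atp4 and ccmFC thus had the fewest counts. Plastid identifiers, used to check the tissue labels, held 0.00768% to 0.0538% of leaf libraries and 0.000252% to 0.00129% of root libraries. In nad4 and ccmFN, replicate 1 of root under whole-plant chilling was far from the other 2 of its group, and the fold changes of root under whole-plant chilling are given with and without it. Nuclear DNA of maize carries copies of mitochondrial DNA, so some counts may belong to such copies. Because the strand setting of the counting is not known, antisense reads could be included. The annotated span of atp4 overlaps the tRNA gene trnR-a, which had 2900 counts, and that of ccmFC overlaps orf102-a, which had 0.

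Members were called in leaf under whole-plant and shoot-only chilling, in root whenever the root itself was cooled, and in both crown parts under shoot-only chilling. In each of these comparisons 1 or 2 of the 6 were called, beside 3.32% to 15.8% of all genes in the same direction. Only cox1 in root under whole-plant chilling and cox3 in bottom crown under shoot-only chilling stayed called without each library in turn. cox1 and atp4 were the genes called higher, in leaf and in root. cox3 was the gene called lower in both crown parts when only the shoot was chilled, and ccmFC lay below control in both without being called. nad4, ccmFC and ccmFN passed the adjusted p threshold of 0.05 in none of the 12 comparisons with all libraries and the low-count filter. In bulk tissue, fewer cells of a type and less RNA per cell cannot be told apart.

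**Figure D1:**
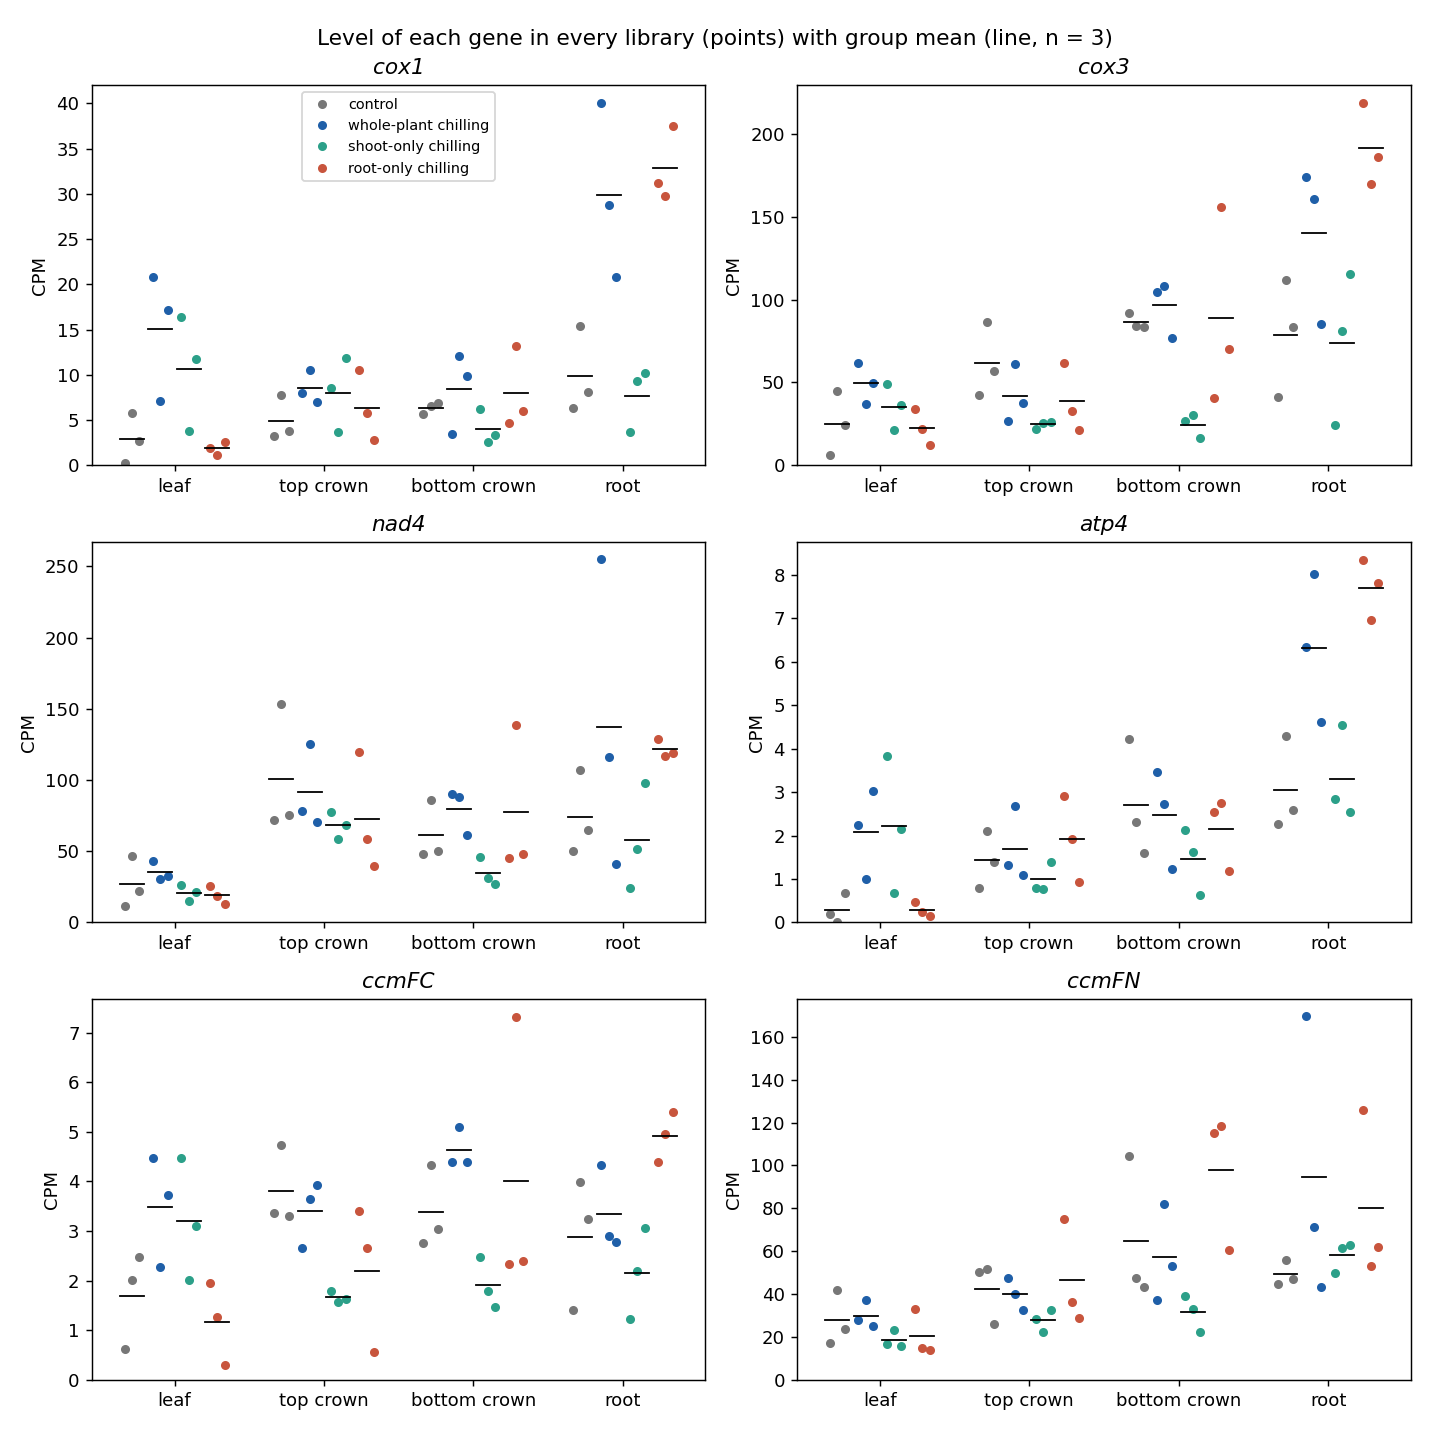
Level of each of the 6 genes, in counts per 1000000 counts of a library (CPM) with TMM scaling within each tissue (linear axes, a separate scale per gene), in all 48 libraries. Points are libraries and lines are means of 3. In root, cox1 was between 29.8 and 37.5 CPM under root-only chilling, above all control libraries.

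In leaf, 2 of the 6 genes (cox1 and atp4) were called higher under whole-plant chilling, where 15.8% of all 15845 genes tested were called higher and 14.3% lower. The same 2 genes had all 3 chilled libraries above all 3 control libraries, as did 21.6% of all genes. atp4 entered the leaf test through its chilled libraries, since control held 1, 0 and 3 counts. Its leaf calls were the same with no low-count filter, a setting that called further members in leaf. Under shoot-only chilling 1 gene (atp4) was called higher, against 15.2% of all genes, and for no member did the groups separate, against 22.4% of all genes above and 21.6% below. Under root-only chilling none was called and none separated, while 22.7% of all genes were called higher and 24.3% lower, and 28.9% lay above and 27.6% below control. The median log2 fold change of the 6 genes was 1.04 under whole-plant chilling (6 positive, 0 negative), 0.74 under shoot-only chilling (4 and 2) and -0.42 under root-only chilling (0 and 6), beside 0.00, -0.01 and 0.06 over all genes. These medians rested partly on single libraries. Without control replicate 1 the whole-plant median was 0.58 (5 positive, 1 negative, a split also found with library size alone and without whole-plant replicate 2) and the shoot-only median 0.28, which was 0.42 without shoot-only replicate 1 and 1.17 without control replicate 2. The direction under root-only chilling was not fixed, since 5 were positive and 1 negative with library size alone, and 4 and 2 without control replicate 2 (median 0.14, against -0.75 without control replicate 1 and -0.12 without root-only replicate 3). The all-gene median shifted with library size alone by -0.21, -0.16 and 0.42 in the 3 comparisons. With it the share of called genes that were higher went from 52.5% to 36.1%, from 51.7% to 38.4% and from 48.3% to 71.6%.

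In the crown, members were called under shoot-only chilling alone, with cox3 called lower in both crown parts. In top crown this was 1 of 6, where 11.4% of all 17706 genes tested were called higher and 12.5% lower, and 2 genes (cox3 and ccmFC) lay wholly below control, as did 21.2% of all genes, with 19.9% wholly above. In bottom crown it was 1 of 6, where 14.4% of all 18779 genes tested were called higher and 11.8% lower, and 4 genes (cox3, nad4, ccmFC and ccmFN) lay wholly below control, as did 20.7% of all genes. All 6 log2 fold changes were negative in bottom crown (median -0.83, all genes 0.02), as were 5 of 6 in top crown (median -0.59, all genes -0.04), and these counts were the same with library size alone. Without control replicate 2 the top crown median was -0.30. Under whole-plant chilling no member was called in top crown, where 16.8% of genes were called higher and 19.5% lower, or in bottom crown, where these shares were 17.6% and 17.4%. ccmFC lay wholly above control in bottom crown under whole-plant chilling, as did 24.3% of all genes there, and no member separated in top crown, where 22% lay above and 25.8% below. Under root-only chilling no member was called or separated. The shares of genes called higher and lower were 17.8% and 18.1% in top crown and 21.4% and 18% in bottom crown, and the shares above and below control were 22.8% and 24.3% in top crown and 27.4% and 26.1% in bottom crown.

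The medians of the 6 genes in the other crown comparisons were -0.11 and -0.16 in top crown under whole-plant and root-only chilling and 0.27 and 0.29 in bottom crown, beside all-gene medians of -0.06, -0.04, 0.00 and -0.02. Their signs changed with single libraries: in top crown to 0.19 (whole-plant) and 0.15 (root-only) without control replicate 2, to 0.05 without whole-plant replicate 3 and to 0.12 without root-only replicate 3, and in bottom crown to -0.46 without root-only replicate 2. The top crown root-only median was -0.72 without root-only replicate 1, and the bottom crown whole-plant median was 0.05 without whole-plant replicate 2. With library size alone both bottom crown medians were near 0, at 0.03 and 0.02. With library size alone the all-gene median moved by -0.25, -0.11 and -0.09 in top crown and by -0.23, -0.16 and -0.27 in bottom crown (whole-plant, shoot-only and root-only). The share of called genes that were higher then went in top crown from 46.3% to 21.9% under whole-plant and from 47.8% to 32.8% under shoot-only chilling. In bottom crown it went from 50.3% to 26.6%, from 54.9% to 34.9% and from 54.3% to 30.9%.

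In root, 2 of the 6 genes (cox1 and atp4) were called higher under whole-plant chilling, against 14.9% of all 18831 genes tested, with 14.4% called lower. Both lay wholly above control, as did 18.1% of all genes, with 21.3% wholly below. Under root-only chilling the same 2 were called higher, against 3.32% of all genes, with 4.3% called lower. 5 of the 6 (all except ccmFN) lay wholly above control under root-only chilling, as did 12.9% of all genes. Under shoot-only chilling, in which the root stayed at 26 °C, no member was called or separated, while 9.63% of genes were called higher and 12.6% lower, and 21.7% lay above and 23% below control. The medians of the 6 genes were 0.91, -0.23 and 1.02 under whole-plant, shoot-only and root-only chilling, beside -0.03, -0.02 and 0.01 over all genes. All 6 log2 fold changes were positive under root-only chilling, also with library size alone and without each library in turn. Under whole-plant chilling all 6 were positive too, but 5 were positive and 1 negative without whole-plant replicate 1 (median 0.42), with library size alone (median 0.49) and without control replicate 1 (median 0.76). The shoot-only median turned positive without control replicate 2 (0.17) or shoot-only replicate 1 (0.12). Library size alone moved the all-gene median by -0.32, -0.17 and 0.08, and the share of called genes that were higher from 50.8% to 28.3% under whole-plant and from 43.2% to 26.5% under shoot-only chilling.

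**Figure D2:**
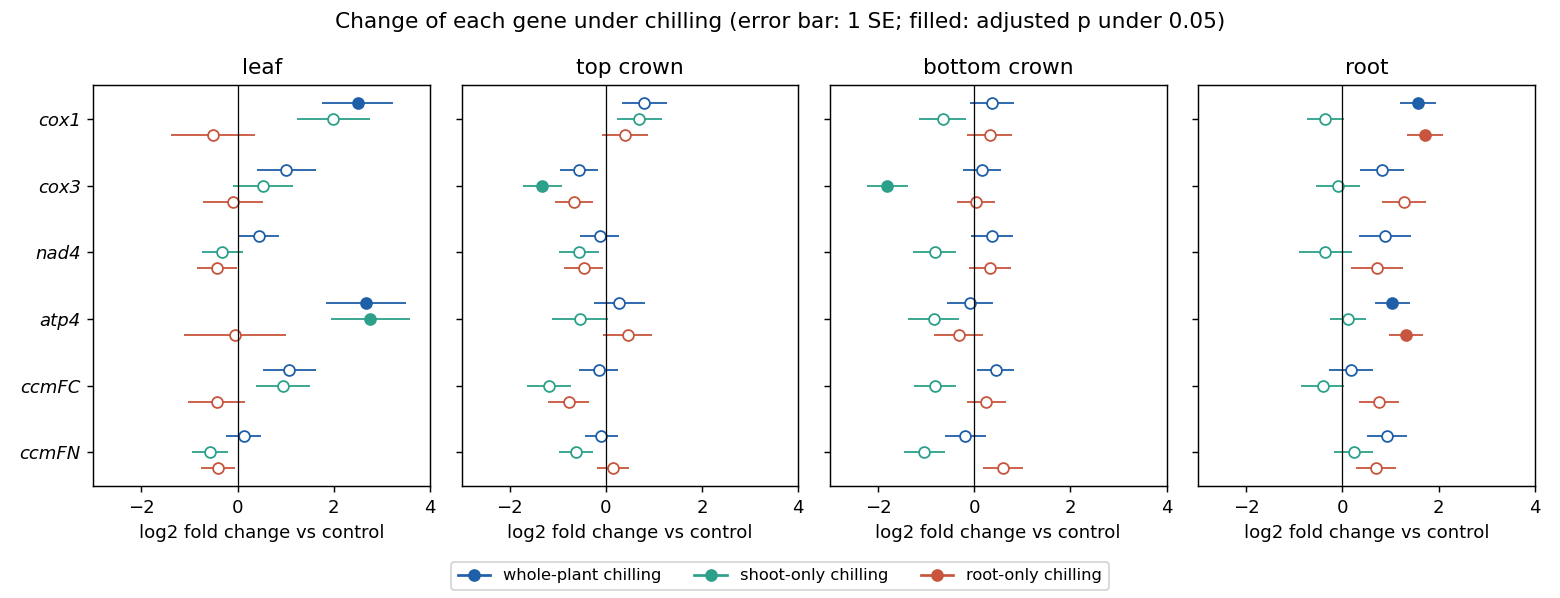
Log2 fold change against control of each gene in each tissue under the 3 kinds of chilling (linear axis; bars are 1 SE from edgeR's quasi-likelihood fit; filled points had an adjusted p under 0.05). Filled points are cox1 and atp4 in leaf and root and cox3 in the crown parts.

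The complex I gene nad4 was not called in any comparison with all libraries and the low-count filter. In leaf it was at 11.5, 47.0 and 21.8 CPM in the 3 control libraries, at 43.2, 30.4 and 32.8 CPM under whole-plant, 26.4, 15.0 and 21.7 CPM under shoot-only and 25.8, 18.9 and 13.2 CPM under root-only chilling. All 3 chilled groups lay within the range of control in leaf. Without leaf control replicate 2, the highest, nad4 passed under whole-plant chilling with a log2 fold change of 1.10, against 0.44 ± 0.42 (SE) with all libraries. In top crown nad4 ranged from 72.2 to 153 CPM in control and from 39.5 to 125 CPM in the chilled libraries, overlapping in each condition. It passed there under root-only chilling without root-only replicate 1 (-1.04), and with no low-count filter as lower under shoot-only (-0.52) and root-only chilling (-0.45). In bottom crown under shoot-only chilling it was at 46.1, 31.3 and 26.9 CPM, below control libraries at 48.2, 86.0 and 50.2 CPM (-0.82 ± 0.45). Bottom crown under root-only chilling held 45.2, 139 and 48.4 CPM, so 1 library was far above the other 2.

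In root nad4 was at 50.5, 107 and 64.6 CPM in control and at 129, 117 and 119 CPM under root-only chilling (0.71 ± 0.54). The root-only libraries were close together and above control. Under whole-plant chilling the root libraries held 255, 116 and 40.9 CPM, spanning the control range on both sides. Without replicate 1, the log2 fold change of 0.88 ± 0.54 became 0.08.

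The complex IV gene cox1 was called in 3 of the 12 comparisons, against 4 for atp4 and 2 for cox3. In control leaf it held 1, 20 and 12 counts, or 0.205, 5.73 and 2.70 CPM. Under whole-plant chilling it was at 20.8, 7.09 and 17.2 CPM, and each of these was above every control library. Under shoot-only chilling, at 16.4, 3.80 and 11.7 CPM, 1 library lay within the control range, as did all of root-only chilling at 1.96, 1.13 and 2.56 CPM. The log2 fold changes were 2.49 ± 0.74 (SE), 1.99 ± 0.75 and -0.51 ± 0.87 in these 3 conditions. The whole-plant call was lost without control replicate 3 (2.50), whole-plant replicate 1 (2.19) or whole-plant replicate 3 (2.39). Under shoot-only chilling cox1 passed without control replicate 2 (2.92) or shoot-only replicate 2 (2.40). These calls thus hung on single libraries.

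In root cox1 was at 6.29, 15.4 and 8.11 CPM in control, and whole-plant chilling gave 40.0, 28.7 and 20.8 CPM. Root-only chilling gave 31.2, 29.8 and 37.5 CPM. All 6 libraries with a cooled root were above all controls, whereas shoot-only chilling, at 3.65, 9.28 and 10.2 CPM, was within or below their range. The log2 fold change was 1.57 ± 0.37 under whole-plant chilling. It stayed past the threshold without each library in turn, between 1.30 and 2.06, and was 1.30 without whole-plant replicate 1. Under root-only chilling it was 1.72 ± 0.37, and this call was lost without control replicate 3 (1.57).

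In top crown cox1 was at 4.92 ± 2.46 CPM (SD, n = 3) in control and at 8.49 ± 1.85, 8.04 ± 4.12 and 6.36 ± 3.89 CPM under whole-plant, shoot-only and root-only chilling, with overlap in each. In bottom crown the means were 6.38 ± 0.639 CPM in control and 8.46 ± 4.46, 4.04 ± 1.89 and 7.94 ± 4.58 CPM under chilling. The spread between chilled bottom crown libraries was several times that between the controls.

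cox3, which encodes a core subunit of the same complex, differed most in the crown. In top crown it was at 42.2, 86.6 and 57.0 CPM in control and at 22.1, 25.6 and 26.4 CPM under shoot-only chilling. In bottom crown it was at 91.9, 84.2 and 83.3 CPM in control and at 26.9, 30.5 and 16.4 CPM under shoot-only chilling. In both crown parts every shoot-only library was below every control library. The log2 fold change in top crown was -1.33 ± 0.41, a call that was lost without control replicate 2 (-1.0) or 3 (-1.38) or shoot-only replicate 1 (-1.25), 2 (-1.33) or 3 (-1.37). In bottom crown it was -1.80 ± 0.43 and stayed past the threshold without each library in turn, between -1.98 and -1.59.

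The other crown comparisons of cox3 overlapped control. Whole-plant chilling gave 26.5, 61.4 and 37.9 CPM in top crown and 104.6, 108.0 and 76.8 CPM in bottom crown. Root-only chilling gave 61.9, 33.0 and 21.5 CPM in top crown and 40.5, 156 and 69.9 CPM in bottom crown. Without the highest library, root-only replicate 1, cox3 passed in top crown as lower under root-only chilling (-1.19, against -0.66 ± 0.39 with it).

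In leaf cox3 overlapped control in all 3 conditions, with a mean of 25.1 ± 19.3 CPM (SD, n = 3) in control and of 49.5 ± 12.5, 35.4 ± 13.8 and 22.8 ± 10.9 CPM under whole-plant, shoot-only and root-only chilling. In root it was at 41.1, 112 and 83.6 CPM in control and at 219, 170 and 186 CPM under root-only chilling, every library above control (1.28 ± 0.46). Under whole-plant chilling the root libraries were at 174, 161 and 85.4 CPM, of which the lowest lay within the control range (0.83 ± 0.46). Without whole-plant replicate 1 this change was 0.63.

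atp4, the ATP synthase gene, had few counts in leaf: 1, 0 and 3 in the control libraries. Under whole-plant chilling there were 10, 4 and 13 counts, at 2.24, 1.01 and 3.02 CPM, each above the highest control library at 0.674 CPM. Under shoot-only chilling there were 18, 3 and 9 counts, at 3.84, 0.670 and 2.15 CPM, and the lowest library was within the control range. The fitted log2 fold changes were 2.67 ± 0.84 and 2.76 ± 0.82. Both calls were the same with no low-count filter, a setting that also called further members in leaf. With so few counts in control these sizes depend on the fit, and without control replicate 3 they were 3.91 and 3.99. The whole-plant call was lost without control replicate 1 (2.43), control replicate 2 (2.23) or whole-plant replicate 3 (2.33). The shoot-only call was lost without control replicate 1 (2.51), control replicate 2 (2.33) or shoot-only replicate 1 (2.09). Under root-only chilling atp4 had 4, 2 and 1 counts in leaf, 0.288 ± 0.158 CPM (SD, n = 3), against 0.293 ± 0.345 CPM in control.

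In root atp4 was at 2.27, 4.30 and 2.60 CPM in control, 6.34, 8.02 and 4.62 CPM under whole-plant chilling and 8.34, 6.97 and 7.82 CPM under root-only chilling. As for cox1, all 6 libraries with a cooled root were above all controls, and shoot-only chilling, at 2.84, 4.56 and 2.55 CPM, overlapped them. The log2 fold change was 1.04 ± 0.36 under whole-plant chilling. That call was lost with library size alone (0.70), with no low-count filter (1.01), and without control replicate 1 (0.86) or 3 (0.93) or whole-plant replicate 1 (1.03) or 2 (0.82). The change of 1.32 ± 0.35 under root-only chilling lost its call without control replicate 1 (1.13) or 3 (1.20) or root-only replicate 1 (1.26), 2 (1.39) or 3 (1.31). In the crown atp4 overlapped control in every comparison, with group means from 0.991 to 1.92 CPM in top crown and from 1.46 to 2.71 CPM in bottom crown.

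Of the cytochrome c maturation genes, ccmFC lay below control in both crown parts under shoot-only chilling without passing the threshold. In top crown it was at 3.36, 4.75 and 3.29 CPM in control and 1.78, 1.56 and 1.63 CPM under shoot-only chilling (-1.18 ± 0.45). In bottom crown the values were 2.76, 4.34 and 3.04 CPM against 2.47, 1.79 and 1.46 CPM (-0.81 ± 0.44). In both parts the groups did not overlap, and in top crown the shoot-only libraries held 9, 8 and 7 counts. Whole-plant chilling placed bottom crown at 4.40, 5.10 and 4.39 CPM, above control by a small margin (0.45 ± 0.39). In root under root-only chilling ccmFC was at 4.40, 4.96 and 5.40 CPM, above control at 1.40, 4.00 and 3.25 CPM (0.76 ± 0.42). Under whole-plant chilling its root change was 0.18 ± 0.45, and -0.05 without whole-plant replicate 1. In leaf its means were 1.70 ± 0.966 CPM (SD, n = 3) in control, 3.49 ± 1.12 CPM under whole-plant, 3.20 ± 1.24 CPM under shoot-only and 1.17 ± 0.832 CPM under root-only chilling, all overlapping.

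ccmFN, the other part of that protein, was below control without overlap in 1 comparison. This was bottom crown under shoot-only chilling, at 39.0, 32.9 and 22.5 CPM against 104.2, 47.3 and 43.1 CPM in control (-1.04 ± 0.43). Control replicate 1 was the highest of these, and without it ccmFN passed in bottom crown under root-only chilling as higher (1.12, against 0.60 ± 0.42 with it). In root ccmFN was at 44.7, 56.1 and 47.2 CPM in control, 170, 71.1 and 43.4 CPM under whole-plant chilling and 126, 52.9 and 61.7 CPM under root-only chilling. In both chilled groups replicate 1 was far above the other 2. The whole-plant change was 0.93 ± 0.41, it was 0.21 without whole-plant replicate 1, and it passed without whole-plant replicate 3 (1.29). The root-only change of 0.70 ± 0.41 became 0.22 without root-only replicate 1.

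In leaf ccmFN was at 17.2, 42.1 and 23.8 CPM in control and its chilled means were 30.0 ± 6.46, 18.4 ± 4.05 and 20.4 ± 10.7 CPM (SD, n = 3) under whole-plant, shoot-only and root-only chilling. It passed as lower in leaf under root-only chilling without root-only replicate 1 (-0.91). In top crown it overlapped control in all comparisons, with means from 27.7 to 46.6 CPM.

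With no low-count filter, further calls appeared among these genes beside those of nad4. In leaf cox1 (1.97) was called higher and ccmFN (-0.59) lower under shoot-only chilling, and cox3 (1.0) higher under whole-plant chilling. In top crown ccmFC (-1.15) and ccmFN (-0.59) were called lower under shoot-only chilling, cox3 was called lower under whole-plant (-0.52) and root-only chilling (-0.65), and cox1 was called higher under whole-plant chilling (0.84).

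The mitochondrial share of the library moved with several of these differences and not with others. In root it was 0.197%, 0.467% and 0.367% in control and 0.623%, 0.542% and 0.538% under root-only chilling, higher in every library. In bottom crown it was 0.323%, 0.211% and 0.234% in control and 0.075%, 0.153% and 0.0654% under shoot-only chilling, lower in every library. In top crown it was 0.157%, 0.159% and 0.159% in control and 0.0757%, 0.0807% and 0.11% under shoot-only chilling, also lower in every library. Top crown under whole-plant chilling was lower too, at 0.08%, 0.141% and 0.107%. In leaf the share was 0.0275%, 0.0804% and 0.0511% in control, with the lowest value in control replicate 1, where each of the 6 genes except atp4 had its lowest control level. Leaf under whole-plant chilling held 0.0848%, 0.0779% and 0.0679%, overlapping control. Leaf under root-only chilling held 0.135%, 0.0997% and 0.0745%, also overlapping control, although all 6 log2 fold changes there were negative with TMM scaling. Root under whole-plant chilling, where cox1 and atp4 were called higher, held 0.411%, 0.550% and 0.384% and overlapped control. Without leaf control replicate 1 the whole-plant log2 fold changes were 1.88 for cox1, 2.43 for atp4 and 0.06 to 0.64 for the other genes except ccmFN, at -0.13.

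**Figure D3:**
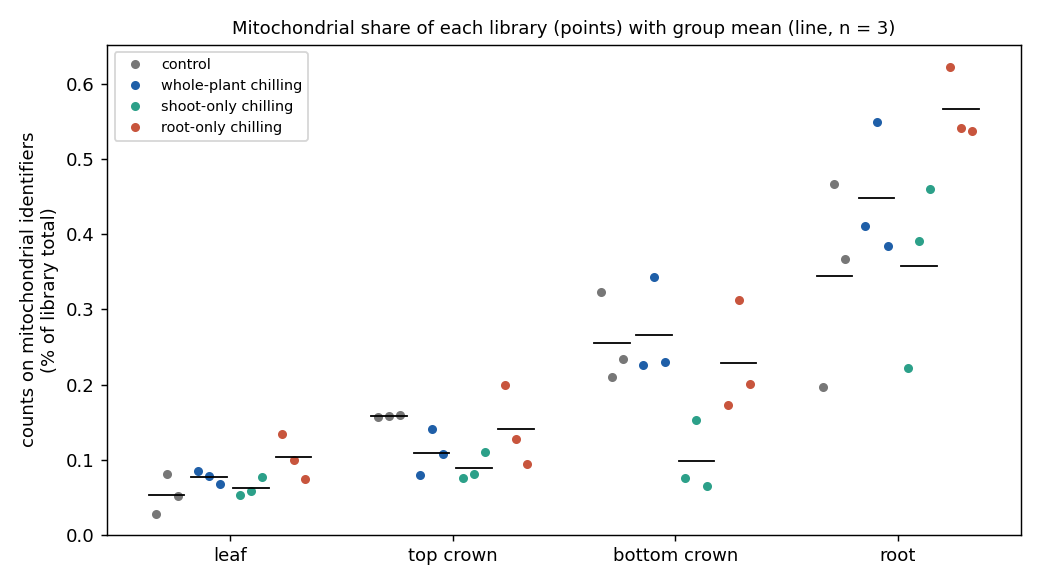
Counts on all mitochondrial identifiers as a percentage of the library total (linear axis) in the 48 libraries. Points are libraries and lines are means of 3. Root under root-only chilling lay between 0.538% and 0.623%, above all root controls.

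Mitochondrial counts other than those of the 6 genes, scaled as CPM, were also apart from control in several comparisons. In root they summed to 2934 ± 999 CPM (SD, n = 3) in control, 4827 ± 586 CPM after whole-plant chilling and 4574 ± 427 CPM after root-only chilling, with every cooled-root library above control. In leaf they summed to 450 ± 207 CPM in control and 763 ± 92.2 CPM under whole-plant chilling, again with every chilled library above. Under shoot-only chilling they were below control in each library of top crown (760 ± 183 against 1256 ± 4.61 CPM) and of bottom crown (855 ± 371 against 2056 ± 484 CPM). The part of mitochondrial content in the differences of the 6 genes was not tested.

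Ratios between the genes within a library do not depend on library scaling. For each 100 counts of cox3 there were 7.58, 8.92 and 6.69 counts of cox1 in control top crown. There were 30.0, 17.2 and 18.4 under whole-plant, 38.4, 14.5 and 45.1 under shoot-only and 17.0, 17.5 and 12.9 under root-only chilling. All 9 chilled top crown libraries were above the 3 controls. Of all other genes tested, 14.9%, 71.2% and 17.8% also had a ratio to cox3 above all controls in these comparisons. In leaf the cox1 to cox3 ratio was 3.23, 12.7 and 11.2 per 100 in control, the lowest resting on 1 count of cox1. Whole-plant chilling gave 33.6, 19.2 and 34.7 and shoot-only chilling 33.6, 17.9 and 32.2. All 6 were above control, as were 2.7% and 3.16% of all other genes tested. Of the 19 other mitochondrial genes tested in leaf, cox1 was the 1 whose ratio was above control in each of these conditions. Under root-only chilling, at 5.76, 5.11 and 21.0, the leaf ratio overlapped control.

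In bottom crown the cox1 to cox3 ratio was 6.18, 7.73 and 8.33 per 100 in control and 23.0, 8.56 and 20.3 under shoot-only chilling, above control as were 89.2% of all other genes. Under root-only chilling it was 11.5, 8.45 and 8.56, just above control, as were 11.5% of genes, and under whole-plant chilling it overlapped. In root it was 15.3, 13.7 and 9.71 in control and 23.0, 17.9 and 24.3 under whole-plant chilling, above control with or without replicate 1, as were 3.75% of genes. The other root conditions overlapped. Over the 12 comparisons the ratio was above control in 8 and below it in 0, and the 3 comparisons of a tissue share their control libraries.

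**Figure D4:**
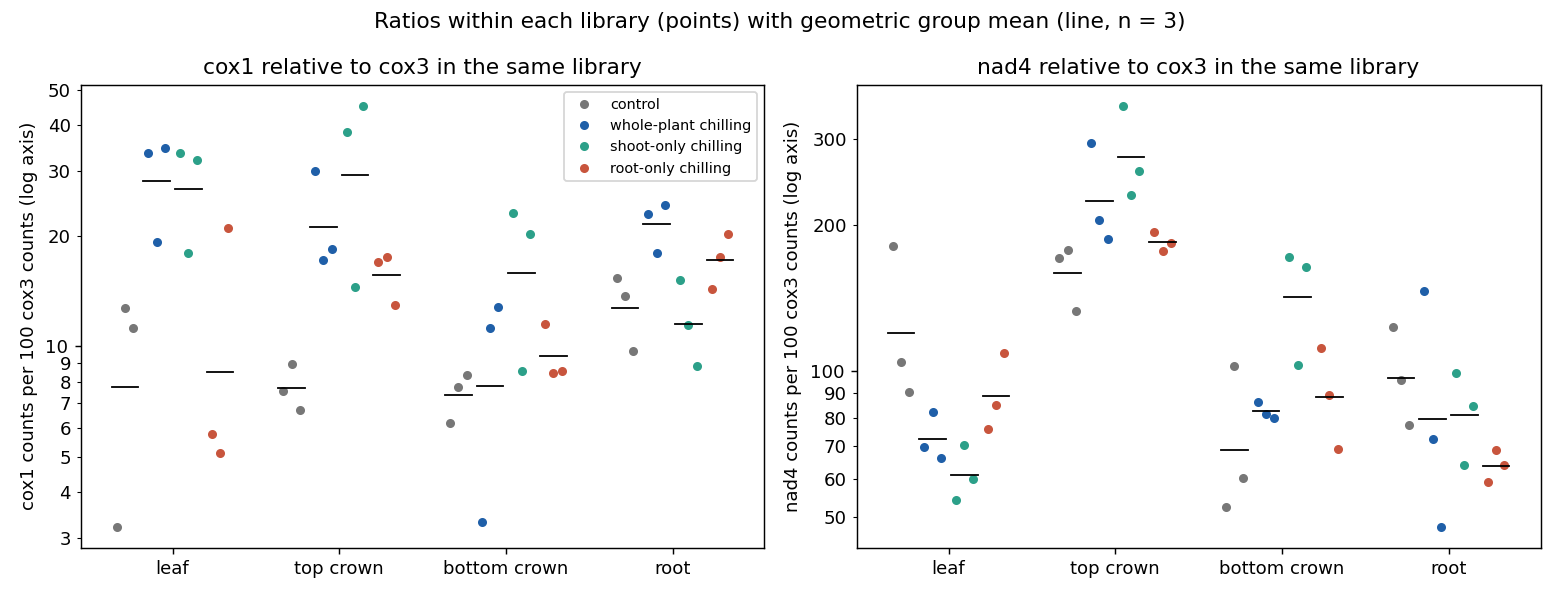
Counts of cox1 (left) and nad4 (right) per 100 counts of cox3 in the same library, on log axes. Points are libraries and lines are geometric means of 3. In top crown all 9 chilled libraries had more cox1 per cox3 than the 3 controls.

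Where its groups separated, the nad4 to cox3 ratio lay below control in leaf and above it in the crown. In leaf it was 181, 104 and 90.7 per 100 in control, 69.7, 82.2 and 66.2 under whole-plant and 54.1, 70.5 and 59.9 under shoot-only chilling. Both chilled groups were below control, as were 31.0% and 11.5% of all other genes. In top crown it was 171, 177 and 133 in control, 295, 204 and 187 under whole-plant and 351, 230 and 258 under shoot-only chilling, above control as were the 14.9% and 71.2% of genes given for cox1. In bottom crown shoot-only chilling gave 172, 103 and 163 against 52.5, 102 and 60.2 in control, above as were 89.2% of genes. In root, root-only chilling gave 59.0, 68.9 and 63.9 against 123, 95.6 and 77.3 in control, below as were 72.4% of all other genes. The remaining 6 comparisons overlapped. Root under whole-plant chilling was 1 of these, at 146, 72.4 and 47.8, and lay below control without its replicate 1.

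The ratio of ccmFC to cox3 was above control in 1 comparison (bottom crown, shoot-only), as were 89.2% of genes. It was below control in 2 (root under whole-plant and root-only chilling, where 29.0% and 72.4% of genes were below). For ccmFN to cox3 the groups overlapped in all 12. Across the 16 group means of log2 CPM, the 15 pairs of the 6 genes had Pearson correlations from 0.38 (nad4 with ccmFC) to 0.88 (cox1 with atp4), with a median of 0.60. For the deviations of the 48 libraries from their group means they ran from 0.23 (atp4 with ccmFN) to 0.86 (cox3 with nad4), with a median of 0.51. The points share library scaling and mitochondrial content, so these are descriptions.

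In control plants few differences between tissues passed for these genes, and how many did depended on the processing. With TMM scaling across the 12 control libraries, atp4 was at 0.56 ± 0.654 CPM (SD, n = 3) in leaf, 1.18 ± 0.547 in top crown, 2.41 ± 1.20 in bottom crown and 2.82 ± 1.06 CPM in root. It was called lower in leaf than in bottom crown (log2 -1.97 ± 0.77 SE), where 33.1% of all 19929 genes tested were lower in leaf, and than in root (-2.21 ± 0.76; 36.6% of genes). It was also called lower in top crown than in root (-1.26 ± 0.51; 36.6% of genes). Its neighbours in that order, leaf and top crown, top crown and bottom crown, and bottom crown and root, did not pass. These were 3 of 36 tests of a gene between a pair of tissues, none of the others passing, while of all genes 69.4% (leaf, top crown), 64.4% (leaf, bottom crown), 66.5% (leaf, root), 48% (top crown, bottom crown), 70.3% (top crown, root) and 55.6% (bottom crown, root) passed in either direction. The 3 became 13 with library size alone, 16 with no low-count filter and 7 when replicate number entered as a block.

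For the other 5 genes no pair of tissues passed with TMM scaling and the low-count filter. cox1 was at 4.07 ± 2.06 CPM in top crown, 5.45 ± 5.22 in leaf, 5.69 ± 0.591 in bottom crown and 9.16 ± 4.59 CPM in root. cox3 was at 47.7 ± 36.3 CPM in leaf, 51.2 ± 18.9 in top crown, 72.8 ± 34.0 in root and 77.1 ± 4.06 CPM in bottom crown. nad4 was at 50.8 ± 34.2 CPM in leaf, 54.8 ± 18.8 in bottom crown, 68.3 ± 28.4 in root and 83.1 ± 38.4 CPM in top crown. For each of these 3 the spread of the leaf libraries covered most of the range of the other tissues.

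ccmFC ranged from 2.66 ± 1.27 CPM in root through 3.01 ± 0.741 in bottom crown and 3.14 ± 0.694 in top crown to 3.23 ± 1.81 CPM in leaf. ccmFN was at 35.1 ± 12.1 CPM in top crown, 45.4 ± 6.31 in root, 52.8 ± 23.9 in leaf and 57.8 ± 30.3 CPM in bottom crown. The place of leaf depended on the scaling. Library size alone moved the all-gene median of leaf against the other tissues by -1.28, -1.28 and -1.18 and put leaf lowest for each of the 6 genes, with cox1 at 2.86 ± 2.81, ccmFC at 1.67 ± 0.931 and ccmFN at 27.5 ± 13.4 CPM there.

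The other mitochondrial genes of these complexes were mostly out of reach of the libraries. A list of 22 names of such genes matched 19 in the count files, and nad1, nad2 and nad5 were not analysed here. Of the 14 identifiers beyond the 6 genes, 7 had 0 counts in all 48 libraries (nad4L, nad7 and nad9 of complex I, cob of complex III, and atp6, atp8 and atp9 of ATP synthase). Another 3 had 1 or 2 counts (nad6 and the copies atp1-a1 and atp1-a2). The remaining 4 had 433 (nad3), 134 (ccmC), 95 (cox2) and 80 (ccmB) counts. Low counts were filtered over the 4 conditions, and 0 of these genes were tested in leaf, 1 in top crown, 0 in bottom crown and 3 in root. The filter can admit a gene on its chilled libraries when control is low, and in root nad3 was admitted through its cooled-root libraries and ccmC and cox2 through the root-only ones.

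nad3, another complex I subunit, had root levels of 1.05, 1.84 and 0.649 CPM in control, 5.67, 5.57 and 3.23 CPM after whole-plant chilling and 7.13, 7.13 and 8.53 CPM after root-only chilling. All libraries with a cooled root were above control. The log2 fold change of nad3 in root was 1.99 ± 0.53 (SE) under whole-plant and 2.65 ± 0.51 under root-only chilling. Because the cooled-root libraries admitted nad3 to testing in root, these are given as values and not as test results. With no low-count filter the log2 fold changes were 1.96 and 2.65. The gene was also named for having passed. Without control replicate 3 the whole-plant change was 1.70, and without whole-plant replicate 1 it was 1.86. In top crown nad3 was lower under root-only chilling (log2 -1.94 ± 0.63), from 1.12, 2.11 and 1.39 CPM to 0.485, 0.241 and 0.371 CPM. These were 7, 12 and 8 counts in control against 3, 1 and 2 counts. Control, whole-plant and shoot-only libraries admitted nad3 to testing in top crown, so this difference too is given as a value. In that comparison 18.1% of all genes were called lower and 24.3% lay wholly below control. nad3 passed the threshold there with all libraries, but not without control replicate 2 (log2 -1.66) or root-only replicate 2 (-1.77) or 3 (-1.92). Under root-only chilling nad3 was thus higher in root and, at few counts, lower in top crown, while nad4 overlapped control in that top crown comparison. In bottom crown nad3 was not tested, but every root-only library was above control (1.27, 2.01 and 1.20 CPM against 0.325, 1.01 and 1.01 CPM). These were 6, 11 and 7 counts against 2, 7 and 7. Whole-plant chilling also put bottom crown above control, at 1.16, 2.21 and 1.75 CPM. Of all genes tested there, 27.4% (root-only) and 24.3% (whole-plant) lay above control.

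ccmC, which encodes another protein of cytochrome c maturation, was at 0.175, 0.307 and 0.487 CPM in control root and 1.97, 1.86 and 1.99 CPM under root-only chilling. These were 1, 2 and 3 counts against 13, 12 and 14, and the log2 fold change was 2.50 ± 0.73 (SE). cox2, a complex IV subunit, was at 0, 0.922 and 0 CPM in control root and 1.97, 1.55 and 3.41 CPM under root-only chilling, with 0, 6 and 0 counts against 13, 10 and 24. Every root-only library was above every control library for both genes, as for 12.9% of all genes tested in root. cox2 did not pass the threshold and was named after its values were seen. ccmB, which was not tested, overlapped control in root. It was at 0.524, 0.768 and 0.162 CPM in control and 0.455, 1.55 and 0.853 CPM under root-only chilling. Because the root-only libraries are what admitted ccmC and cox2 to testing, their differences are given as values and not as test results.

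The genes with profiles most like these were sought among 21719 genes by the Pearson correlation of mean log2 CPM over the 16 groups. For cox3 the closest was the mitochondrial ribosomal protein gene rps1 (ZeamMp097, r = 0.94), which lies directly before ccmFN in the reference annotation, followed by Zm00001d024522 (0.92) and Zm00001d013834 (0.91). For cox1 the closest 3 were the ENSRNA features ENSRNA049468588 (0.95), ENSRNA049465372 (0.94) and ENSRNA049465449 (0.93). For nad4 they were the mitochondrial open reading frame orf1159 (ZeamMp088, 0.88), Zm00001d048772 (0.87) and Zm00001d052053 (0.87). For atp4 the closest was Zm00001d026563 (0.95), for ccmFC Zm00001d020137 (0.86) and for ccmFN Zm00001d035731 (0.86). The files do not pair the nuclear identifiers with gene names. As the closest of many genes, these values describe the ranking only.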

How the data were processed

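RNA was extracted with Trizol, and 3′ libraries were made with the QuantSeq FWD kit and sequenced on a NextSeq500, per the labels' protocols. The authors deposited raw counts per identifier as whole numbers for each library. STAR and edgeR are named in the submitters' processing notes, with no versions. The sources used here do not give the genome build, annotation, counting step, strand setting or use of molecular identifiers. The 4 deposited tables of normalized values were not used.

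Low-count genes were removed with filterByExpr, and each tissue's 12 libraries were fitted together in edgeR 4.0.16 (R 4.3.3), with TMM scaling and a robust quasi-likelihood model of the 4 conditions. P-values were adjusted by Benjamini-Hochberg over all genes tested (threshold 0.05). The 3 comparisons of a tissue share control libraries. The 12 control libraries were fitted likewise with 4 tissue means. All 6 members passed the low-count filter in each tissue, atp4 in leaf through chilled libraries. Standard errors were derived from the F value of each test. Names came from RefSeq (assembly Zm-B73-REFERENCE-NAM-5.0), used for names and neighbours only, and all 208 mitochondrial identifiers matched.

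All 6 members were named, and of the other mitochondrial genes of these complexes those past the threshold in at least 1 chilling comparison (nad3 and ccmC). cox2, below the threshold, was named after its values were seen, and ccmB, not tested, is given beside it. For likeness the 3 genes of highest correlation per member were taken. The members, lists and tests were chosen with earlier results of these data known. The procedure was tested on simulated root counts with known changes and the same spread for every gene. The changes were placed only in genes with higher control levels than atp4 and ccmFC, so the simulation does not cover these. No library pair of a group agreed within sampling noise (chi-square per degree of freedom at least 3.73), so none was treated as a copy. The biological repeats are not described further, so a p-value measures only the spread among these samples, which may be technical. Counts of reads are not counts of molecules, and precision from depth covers counting error only. Alternatives were DESeq2 1.42.0, library size alone, no low-count filter, the replicate number as a block, and each library left out.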

Additional observations from a re-analysis of the deposited data

Results flagged for a closer look

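Where its groups separated, the ratio of nad4 to cox3 within a library moved in opposite directions in leaf and in the crown. The ratio overlapped control in leaf and top crown under root-only chilling, and in bottom crown under whole-plant and root-only chilling. Under whole-plant chilling its mean log2 ratio changed by -0.72 in leaf and by 0.50 in top crown, with every leaf library below and every top crown library above its controls. Under shoot-only chilling it changed by -0.97 in leaf, 0.79 in top crown and 1.05 in bottom crown, again with no overlap in any of the 3. In bottom crown the margin was very small, with the lowest shoot-only library just above the highest control library. In top crown 14.9% (whole-plant) and 71.2% (shoot-only) of all other genes tested also had a ratio to cox3 above control, and in bottom crown 89.2% (shoot-only). Among mitochondrial genes, nad4 included, these were 6 of 19, 11 of 19 and 14 of 18, and under shoot-only chilling cox3 itself was called lower in both crown parts. In leaf 31.0% (whole-plant) and 11.5% (shoot-only) of all other genes were below control, and nad4 was the 1 of 19 mitochondrial genes there. The difference between tissues was not tested. With 3 libraries per group, these leaf and crown ratios were not recomputed without single libraries.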

How the results depend on the processing

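Counts of members called were recomputed under each alternative. With no low-count filter they became 3 instead of 2 in leaf under whole-plant and 3 instead of 1 under shoot-only chilling. In top crown this setting gave 2 instead of 0 under whole-plant, 4 instead of 1 under shoot-only and 2 instead of 0 under root-only chilling. It gave 1 instead of 2 in root under whole-plant chilling and 16 instead of 3 between control tissues. With library size alone they became 1 in root under whole-plant chilling and 13 between control tissues. DESeq2 moved no count by over 1.5 times. With each library left out in turn, the counts under whole-plant, shoot-only and root-only chilling ran from 0 to 2, 0 to 2 and 0 to 1 in leaf, 0 to 0, 0 to 1 and 0 to 2 in top crown, 0 to 0, 1 to 1 and 0 to 1 in bottom crown, 1 to 3, 0 to 0 and 0 to 2 in root, and 2 to 4 between control tissues. The cause of these shifts was not tested. With the replicate number as a block, the count between control tissues became 7, and the counts under chilling stayed the same. Whether the replicate numbers pair the samples is not described, and the correlations cannot settle it. In 0 of 18 comparisons were all same-number correlations over 0.1 (range -0.25 to 0.35), but in 4 all 6 samples correlated best with their own number. Of 840 recomputed single-gene changes of the members and other pathway genes, 25 changes of members moved by over the spread between replicates, and 0 called changes reversed. Over all alternatives 26 calls of members were lost and 18 gained, and 11 calls of other pathway genes were lost and 5 gained. atp4 and ccmFC had the fewest counts of the members, and pathway genes that were not tested had too few counts to pass the filter.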

Other observations

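As a share of mitochondrial counts, ccmFN in leaf was 6.25%, 5.30% and 4.47% in control. It was 3.06%, 3.81% and 3.06% under whole-plant, 2.81%, 3.59% and 1.73% under shoot-only and 3.52%, 1.95% and 2.24% under root-only chilling, so all 9 chilled libraries were below the 3 controls. Of the 20 mitochondrial genes tested in leaf, 3, 3 and 6 had a share below control in these conditions, ccmFN included. The level of ccmFN in CPM overlapped control in leaf in all 3 conditions. Over all libraries orf99-d held 48.3% of mitochondrial counts. Its leaf mean was 149 CPM in control and 283, 266 and 263 CPM under whole-plant, shoot-only and root-only chilling, with overlap under shoot-only chilling. cox1 in root was 0.324%, 0.389% and 0.228% of mitochondrial counts in control, 0.717%, 0.501% and 0.473% under whole-plant and 0.570%, 0.661% and 0.743% under root-only chilling, above control in each cooled-root library. Of the 24 mitochondrial genes tested in root, 8 and 13 had a share above control in these conditions, cox1 included. Differences in these shares were not tested.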
